A study of Mus musculus with 67 samples.

Results

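Livers of Sestrin double knockout (DKO) mice that had eaten leucine-free food for 24 hours were compared with livers of DKO mice on control food at the same time point. The members were chosen by genotype, diet and time in the sample labels. They make up 26 of the 67 liver libraries of the study, 18 leucine-free and 8 control, and each library comes from a separately numbered mouse. WT mice sampled on the same day, 12 on leucine-free food and 7 on control food, serve only to show where the DKO response differs. All 26 mice share the knockout, so the comparison shows a diet response on that background. The labels write the genotype as Sesn2 DKO and the series text as Sestrin DKO. Age, sex, strain, the allele design and any fast before sampling are not named in the sources used here.

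Leucine is an essential amino acid, and a cell reads its supply in more than 1 way. The sestrins are cytosolic proteins that bind and restrain GATOR2 when leucine is scarce; without them, the growth kinase complex mTORC1 is less well switched off. A separate branch senses uncharged transfer RNA through the kinase GCN2, which slows translation and lets the transcription factor ATF4 build up. In liver, the SREBP transcription factors turn on the genes of fatty acid and cholesterol synthesis, and a diet lacking an essential amino acid is known to lower lipid synthesis and to make the liver release the hormone FGF21.

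Counts per gene were scaled to CPM, each library's reads set to the same normalised total, and differences are log2 leucine-free minus control with the standard error (SE) after ±. Where a gene is said to rise or fall by an amount, that amount is on the log2 scale. Total counts per library were 28791476 to 51913541 in leucine-free and 28705658 to 45951858 in control livers. The hepatocyte gene Alb, which encodes serum albumin, reached 30934 to 79194 CPM (median 58517) in leucine-free livers, against 73359 to 93724 CPM (median 80629) in control livers. Cpa1, Prss2, Pnlip and Amy2a5 (pancreatic enzymes) and Plin1 and Lep (fat cell genes) had no count in any of the 26 libraries. In bulk tissue, fewer cells of a type and less RNA per cell cannot be told apart. Leucine-free replicate 1 had no Xist count and no Y-linked count, while the other 25 libraries had 14729 to 36886 Xist counts, and leucine-free replicate 3 stood apart in several inflammation genes. Sesn1, the gene that checks the genotype label, lay at 3.49 to 5.14 CPM (median 4.52) in leucine-free livers, against 3.86 to 5.44 CPM (median 4.83) in control livers, with no detected diet difference (log2 -0.10 ± 0.10, adjusted p = 0.474). In WT livers of the same day its medians were 12.9 CPM on leucine-free and 18.0 CPM on control food. Counts over the whole Sesn2 gene do not show whether part of it is deleted.

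The response was broad. edgeR's quasi-likelihood test with Benjamini-Hochberg adjustment called 3976 of 16908 genes (23.5%), of which 1772 were higher in leucine-free livers (10.5% of those tested) and 2204 lower (13%). Most changes were small: the median size was 0.437 on the log2 scale among higher genes and 0.446 among lower ones. Changes of at least 2 log2 units were counted for 65 higher and 209 lower genes. Only 412 of the called genes are on a pathway or marker list used here. Over all genes tested the median log2 difference was 0.023. The shares of 10.5% higher and 13% lower are the background for the counts of list members given below. The groups did not overlap at all for 72 genes above (0.426% of those tested) and 237 below (1.4%). Of 14068 protein-coding genes 25.6% were called, and of 600 lincRNA genes 17.7%.

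**Figure D1:**
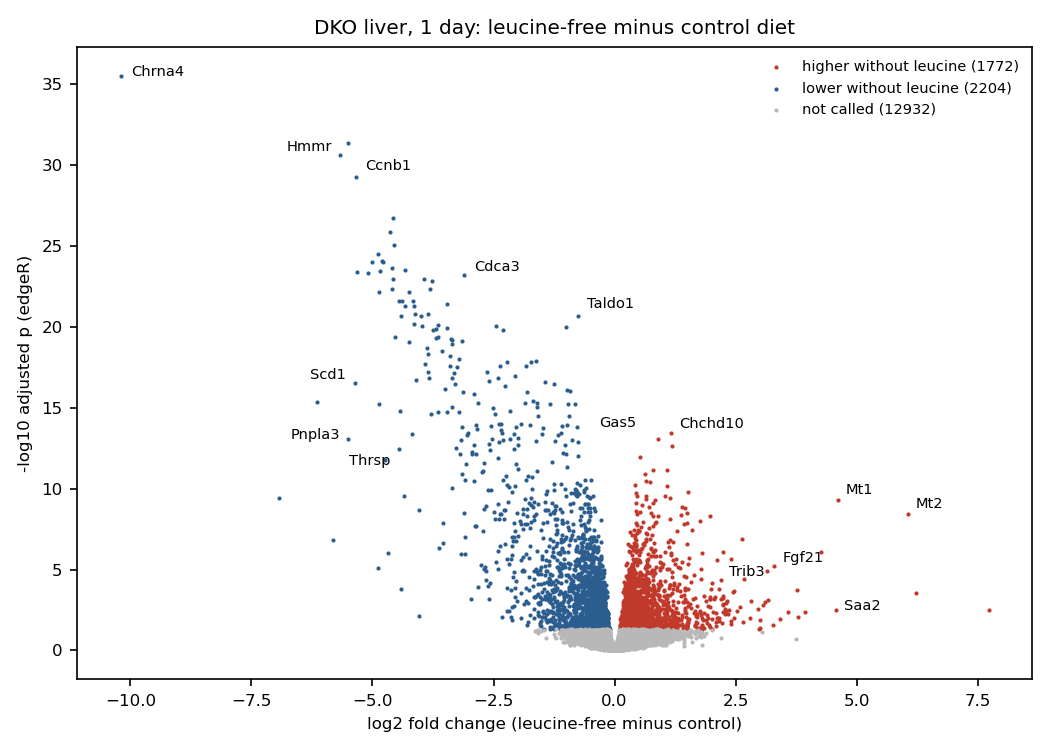
Log2 difference of each of the 16908 genes, leucine-free minus control DKO livers (x axis), against minus log10 of the adjusted p (y axis), with 1772 higher genes in red, 2204 lower genes in blue and 12932 other genes in grey. The largest differences lie on the lower side, with Chrna4 farthest out at -10.20.

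Among genes with an established name that averaged 5 CPM or more in either group, those that rose most were the metallothioneins, small zinc-binding proteins. Mt2 (ENSMUSG00000031762, chr8:94172664-94173568) reached 14.5 to 1298 CPM (median 207) in leucine-free livers, against 2.24 to 9.43 CPM (median 4.14) in control livers, a log2 difference of 6.05 ± 0.76, adjusted p = 3.65e-09. The groups did not overlap, but leucine-free livers spread widely: replicate 5 had 14.5 CPM and replicate 3 had 1298 CPM. Mt1 (ENSMUSG00000031765, chr8:94179082-94180327), its neighbour on the chromosome, reached 37.7 to 1118 CPM (median 235) in leucine-free livers, against 9.02 to 23.6 CPM (median 10.5) in control livers (log2 4.61 ± 0.54, adjusted p = 5.29e-10). Metallothionein counts are uncertain, as are those of the Saa, Gsta, Hba, Hbb and Mup families, because near-identical copies can share reads. Other genes among the 12 largest rises were Tsku, a secreted small proteoglycan made by liver (log2 2.54), and Eif4ebp3, a translation repressor (2.23).

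The genes with the smallest p among those that rose were less extreme in size and tighter in spread. Chchd10 (ENSMUSG00000049422, chr10:75933130-75937747), which encodes a mitochondrial intermembrane space protein, had 722 to 1318 CPM (median 953) in leucine-free livers, against 354 to 467 CPM (median 451) in control livers. No control liver came near the lowest leucine-free liver, and the log2 difference was 1.17 ± 0.11, adjusted p = 3.40e-14. Gas5, a noncoding RNA that hosts small nucleolar RNAs, likewise separated the groups with 56.4 to 99.97 CPM (median 87.5) in leucine-free livers, against 39.9 to 55.2 CPM (median 46.4) in control livers (log2 0.89 ± 0.08, adjusted p = 8.99e-14). Without overlap were also Nrbp2, a pseudokinase (log2 1.18), Plbd2, a lysosomal protein (0.53), and Gfra1, a receptor of GDNF family ligands (1.08). Ctsf, a lysosomal protease, rose by 0.79 with overlapping groups.

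**Figure D2:**
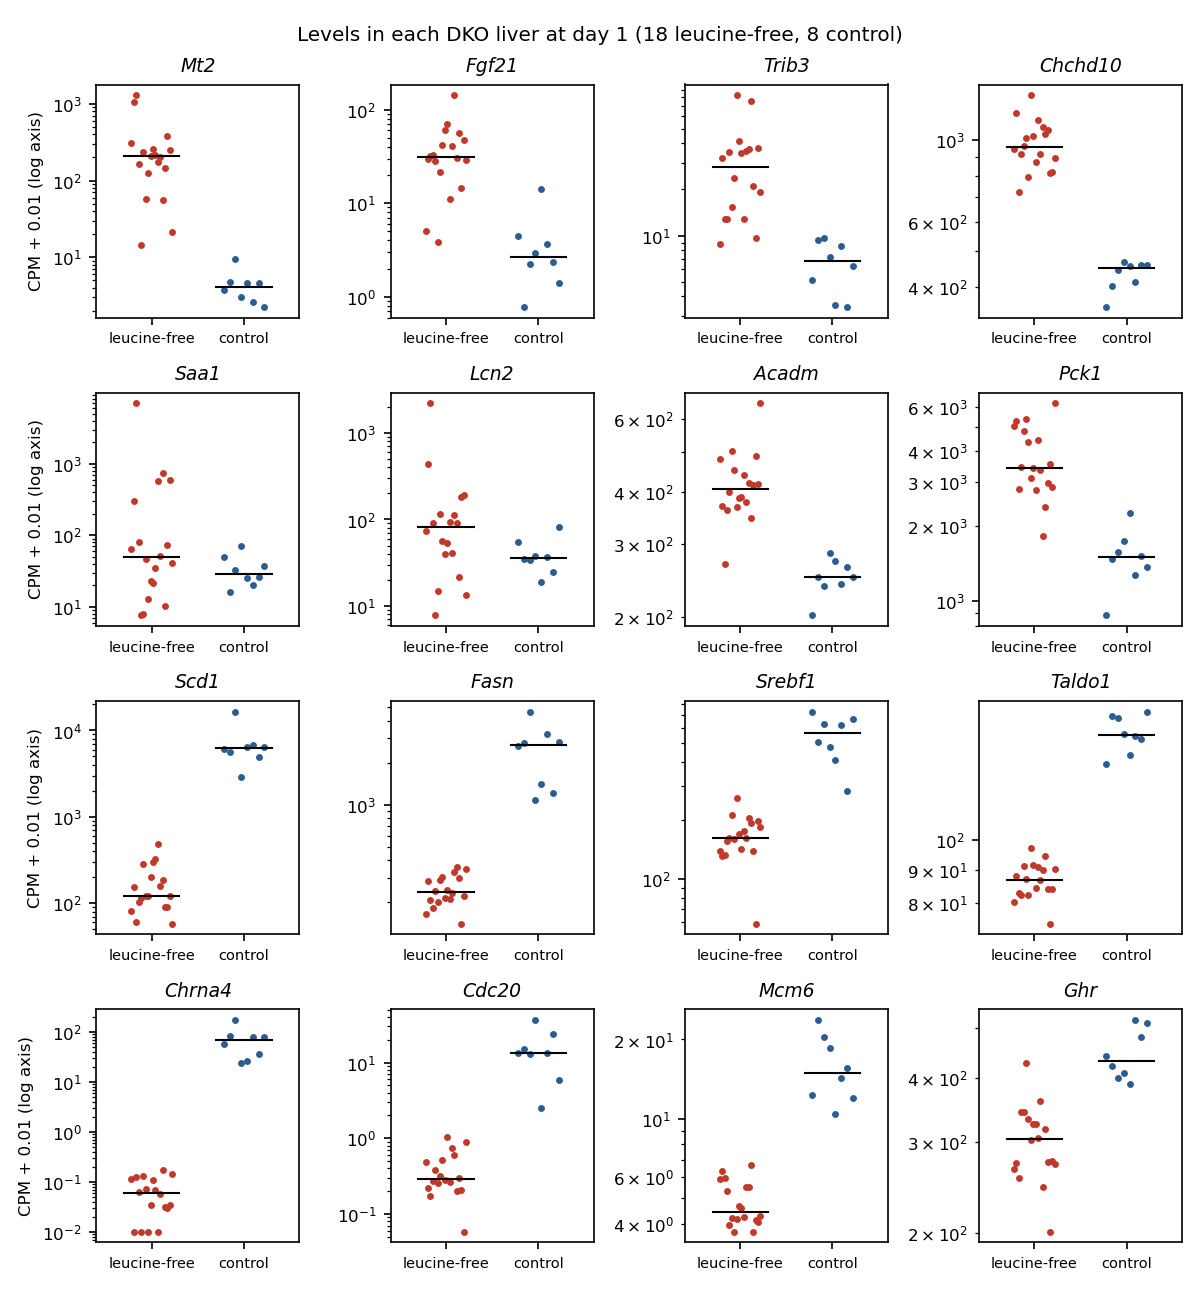
CPM plus 0.01 on a log axis for 16 genes, each dot 1 liver, with 18 leucine-free DKO livers left of 8 control DKO livers and a line at each median. Chchd10 and Taldo1 separate completely, Chrna4 and Scd1 separate by large distances, and Saa1 and Lcn2 overlap with leucine-free replicate 3 far above the rest.

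The promoters of Fgf21, Chchd10 and Mt2 are shown here, from RefSeq on GRCm38.p6, from 150 bases before to 30 bases after the RefSeq start. Capitals in Fgf21 and Chchd10 mark the C/EBP-ATF element TGATGNAA, the kind of site through which ATF4 acts. Capitals in Mt2 mark TGCNCNC, a loose form of the metal response element, the site of the zinc sensor MTF1. It also takes in stretches outside the stricter core, such as TGCTCTC. Both strands were searched.
Fgf21: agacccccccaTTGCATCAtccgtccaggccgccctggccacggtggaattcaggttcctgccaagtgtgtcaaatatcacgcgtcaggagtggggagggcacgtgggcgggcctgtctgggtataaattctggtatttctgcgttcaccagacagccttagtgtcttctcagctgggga
Chchd10: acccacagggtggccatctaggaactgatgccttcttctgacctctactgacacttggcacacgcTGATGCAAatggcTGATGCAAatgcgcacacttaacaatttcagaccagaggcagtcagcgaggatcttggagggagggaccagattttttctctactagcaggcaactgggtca
Mt2: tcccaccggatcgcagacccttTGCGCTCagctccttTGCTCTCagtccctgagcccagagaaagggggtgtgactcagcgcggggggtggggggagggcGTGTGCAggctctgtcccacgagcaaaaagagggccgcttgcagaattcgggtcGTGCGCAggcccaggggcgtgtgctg
The Fgf21 window is chr7:45615461-45615640, minus strand, that of Chchd10 chr10:75932980-75933159, plus strand, and that of Mt2 chr8:94172468-94172647, plus strand. Gene positions in the text come from GENCODE M21, whose starts can differ from those of RefSeq. There, Mt2 starts after the end of the printed Mt2 window. Chchd10 holds 2 copies of the same 8 bases on 1 strand, from position -85 to -78 and from -72 to -65 relative to the start. Fgf21 holds 1 match on the opposite strand. In windows of 300 bases, 9 of 40 promoters of the integrated stress response list held TGATGNAA, and 3.97% of all 32851 promoters did. The loose metal pattern TGCNCNC is common: 8 of 10 promoters of the metallothionein and zinc transport list held it, and 51% of all promoters. A match describes the letters only and shows no binding.

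Of 35 tested genes of the integrated stress response, the program run by ATF4, 12 rose and 4 fell, with a median of 0.33. The hormone gene Fgf21 (ENSMUSG00000030827, chr7:45613886-45615490) had 3.82 to 143 CPM (median 30.9) in leucine-free livers, against 0.766 to 14.2 CPM (median 2.65) in control livers (log2 3.29 ± 0.56, adjusted p = 6.09e-06). Leucine-free replicates 6 and 1 were the lowest of their group at 3.82 and 4.99 CPM, and control replicate 5, at 14.2 CPM, lay above both. Trib3 (ENSMUSG00000032715, chr2:152337422-152344032), a pseudokinase that restrains AKT, had 8.84 to 82.7 CPM (median 28.0) in leucine-free livers, against 3.40 to 9.59 CPM (median 6.77) in control livers (log2 2.20 ± 0.42, adjusted p = 4.50e-05), and of 18 leucine-free livers only replicate 1 lay within the control range. Atf5, a transcription factor of the same family as Atf4, separated completely with 1066 to 2478 CPM (median 1676) in leucine-free livers, against 770.3 to 1032 CPM (median 882) in control livers (log2 0.93 ± 0.16, adjusted p = 3.39e-06). Among the other rises were Chac1, which degrades glutathione (log2 1.58), Ddit3, the factor CHOP (1.31), and the stress hormone gene Gdf15 (1.12). Psph, the last enzyme of serine synthesis, fell (log2 -0.70), and its upstream partners Phgdh and Psat1 were not called. Asns, asparagine synthetase, had 0.555 to 14.3 CPM (median 4.40) in leucine-free livers, against 1.69 to 9.26 CPM (median 3.45) in control livers (log2 0.33 ± 0.47, adjusted p = 0.659). Atf4 itself was not called (log2 -0.19).

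Ddit4 (ENSMUSG00000020108, chr10:59949669-59951834), also known as REDD1, inhibits mTORC1 and answers to stress and to glucocorticoids. It had 5.41 to 258 CPM (median 59.2) in leucine-free livers, against 13.3 to 37.9 CPM (median 20.01) in control livers, a log2 difference of 2.23 ± 0.54, adjusted p = 0.00129. The leucine-free livers ranged from below to far above the control livers: replicates 8, 9, 10, 12, 13 and 14 lay between 156 and 258 CPM, and replicates 1, 6, 11, 15, 16 and 18 within or below the control range.

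Genes of mTORC1 and its nutrient inputs changed little. Of 39 tested, 3 rose and 8 fell, and among those that fell only Sesn3 changed by more than 0.5 on the log2 scale. Sesn2 and Sesn3 moved in opposite directions: Sesn2 had 14.9 to 36.9 CPM, median 20.7, in leucine-free livers and 10.6 to 17.9 CPM, median 12.4, in control livers (log2 0.81 ± 0.14, adjusted p = 1.00e-05), and Sesn3 had 20.6 to 48.0 CPM, median 33.2, in leucine-free livers and 44.0 to 56.8 CPM, median 49.9, in control livers (log2 -0.57 ± 0.09, adjusted p = 8.17e-07). Of the GATOR1 and GATOR2 genes, Depdc5 fell by 0.20 and Wdr24, Wdr59, Mios, Nprl2 and Nprl3 were not called. Mtor and Rptor were not called either (log2 0.21 and -0.03). The 4E-BP genes encode translation repressors that mTORC1 inactivates. Eif4ebp3 reached 2.51 to 12.8 CPM (median 6.22) in leucine-free livers, against 0.469 to 3.61 CPM (median 1.08) in control livers (log2 2.23 ± 0.35, adjusted p = 7.98e-07), whereas Eif4ebp1 rose by 0.19 and Eif4ebp2 was not called.

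Parts of the protein synthesis machinery moved apart. Of 43 cytosolic ribosomal protein genes 20 rose and none fell, by small amounts (list median 0.15). Rpl23 had 220.1 to 309.6 CPM, median 262, in leucine-free livers and 181 to 209.9 CPM, median 199, in control livers (log2 0.39 ± 0.07, adjusted p = 3.04e-06), and the groups did not overlap. The elongation factor genes Eef1a1 and Eef2 also separated, each with a log2 difference of 0.44, and Eif4b, a helicase cofactor, rose by 0.55. All of these messenger RNAs are of the class whose translation mTORC1 controls through a pyrimidine tract at the start. On the translation factor list as a whole, 9 of 27 rose, 3 fell and 15 were not called. Its median was 0.003, beside 0.023 over all genes tested. Of 27 ribosome assembly genes 3 rose and none fell, but 3 fell without control replicate 5. The aminoacyl-tRNA synthetases, which charge transfer RNA, went the other way, with 12 of 20 lower and none higher (median -0.23). Cars, which charges cysteine, was the most changed, with 16.6 to 39.7 CPM, median 26.9, in leucine-free livers and 37.8 to 60.6 CPM, median 45.7, in control livers (log2 -0.73 ± 0.11, adjusted p = 8.17e-07). Lars, which charges leucine, fell by 0.26.

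Of 30 proteasome subunit genes 17 were lower and none higher (median -0.16), and Psmd14, the deubiquitinase of the lid, had 27.2 to 49.2 CPM, median 32.8, in leucine-free livers and 39.4 to 60.3 CPM, median 52.2, in control livers (log2 -0.61 ± 0.08, adjusted p = 2.40e-08). With no expression filter 11 of the 30 were called lower. Of 33 autophagy and lysosome genes 7 rose, 4 fell and 22 were not called, with a median of 0.025 beside 0.023 over all genes tested. Ctsa, a lysosomal protease, had 145 to 177 CPM, median 155, in leucine-free livers and 101 to 133 CPM, median 113, in control livers (log2 0.46 ± 0.05, adjusted p = 2.83e-10) and separated the groups. Map1lc3b and Map1lc3a, which encode LC3 proteins of the autophagosome, rose by 0.51 and 0.74. Chaperones of the endoplasmic reticulum were nearly still, with 0 of 22 higher and only Edem1 lower (log2 -0.30). Of 16 cytosolic chaperone genes Hspb1 (0.98) and Hspa8 (0.43) rose, Hspa4l fell and 13 were not called. Over all genes tested 10.5% were higher and 13% lower.

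Genes that answer to glucocorticoids, the adrenal hormones of fasting and stress, were higher in 13 of 19 cases and lower in none (median 1.14). Beside the metallothioneins and Ddit4 these included Sgk1, a kinase (log2 1.99), Per1, a clock gene with a glucocorticoid-responsive promoter (1.70), Zbtb16 (1.52), Fkbp5, a chaperone of the receptor (0.87), and Tsc22d3, also called GILZ (0.80). Per1 had 13.4 to 119 CPM (median 21.6) in leucine-free livers, against 4.64 to 22.7 CPM (median 6.06) in control livers, and 7 of 18 leucine-free livers lay above all control livers. The receptor gene Nr3c1 was not called (log2 -0.10). The call of Fam107a, at log2 2.11, rested on leucine-free replicate 16: without it the value was 1.34 (adjusted p = 0.0923).

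Genes of the acute phase, the response of liver to inflammation, rose too, but part of this came from few livers. The list holds plasma proteins and also signalling genes such as Stat3 and Socs3. Of 24 genes 17 were higher and none lower (median 0.89); without leucine-free replicate 3, 11 were. Lbp, which binds bacterial lipopolysaccharide, had 141 to 618 CPM (median 211) in leucine-free livers, against 61.0 to 104 CPM (median 86.0) in control livers (log2 1.52 ± 0.17, adjusted p = 1.52e-10), and Il6ra, the interleukin 6 receptor subunit, had 40.9 to 121 CPM (median 55.7) in leucine-free livers, against 16.9 to 31.0 CPM (median 23.8) in control livers (log2 1.37 ± 0.17, adjusted p = 4.04e-09). Both separated the groups. Saa1 (ENSMUSG00000074115, chr7:46740497-46742980), serum amyloid A, had 7.64 to 6959 CPM (median 49.4) in leucine-free livers, against 16.3 to 71.6 CPM (median 29.2) in control livers. Of 18 leucine-free livers 7 lay above the control range, 7 within it and 4 below it, and replicate 3 held the highest value. Its log2 difference of 3.94 ± 1.07, adjusted p = 0.00433, became 2.17 (adjusted p = 0.0411) without that replicate. Saa2 had 3.32 to 6401 CPM (median 14.5) in leucine-free livers, against 12.3 to 27.7 CPM (median 17.3) in control livers, so that its median was lower in leucine-free livers, and the fitted 4.57 became 1.94 (adjusted p = 0.0705) without it. For Lcn2, an iron-scavenging protein, 2.40 became 1.256 (adjusted p = 0.125), and the calls of Saa3, Orm2, Fga and Stat3 were lost as well. With all livers, limma voom called none of Saa1, Saa2 and Lcn2 (adjusted p = 0.238, 0.645 and 0.297). The neutrophil attractant Cxcl1 kept its call, with 2.36 in all livers and 1.59 (adjusted p = 0.0153) without replicate 3. Interferon-responsive genes did not rise with them: 7 of 25 fell, among them Bst2 (log2 -0.59) and Isg15 (-0.83), and 1, Irf9, rose (0.25).

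Zinc transport moved along with the metallothioneins in part. Slc39a14, an importer induced by inflammation, rose by 0.63, whereas the importers Slc39a5 and Slc39a4 fell (log2 -1.76 and -0.76). Slc39a4 had 29.1 to 56.3 CPM, median 38.6, in leucine-free livers and 53.7 to 84.4 CPM, median 64.8, in control livers. The metal sensor gene Mtf1 was not called (log2 -0.13).

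Among genes that averaged 5 CPM or more in either group, the 12 largest falls belonged to the cell cycle, to lipid synthesis and to Chrna4. Chrna4 (ENSMUSG00000027577, chr2:181018380-181043546), a subunit of the nicotinic acetylcholine receptor, had 0 to 0.164 CPM (median 0.0494) in leucine-free livers, against 23.3 to 174 CPM (median 68.2) in control livers (log2 -10.20 ± 0.42, adjusted p = 2.89e-36). It was near or at 0 in the leucine-free livers and well expressed in each control liver. Scd1 (ENSMUSG00000037071, chr19:44394455-44407879), which makes monounsaturated fatty acids, had 58.1 to 481 CPM (median 121) in leucine-free livers, against 2856 to 16535 CPM (median 6335) in control livers (log2 -5.37 ± 0.40, adjusted p = 3.03e-17). Pnpla3, a lipid droplet lipase, and Thrsp, a lipogenic regulator, fell by 5.50 and 4.46. In all, 20 of 24 fatty acid synthesis genes fell (median -1.71) and 22 of 25 cholesterol synthesis genes fell (median -1.80), with none higher in either list. The 4 fatty acid genes not called were Mlxipl, Agpat2, Lpin1 and Dgat2, with log2 differences of -0.15, -0.09, 0.29 and -0.10.

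Along the route from citrate to fat, Acly, which makes cytosolic acetyl-CoA, had 76.5 to 246 CPM, median 165, in leucine-free livers and 445 to 2054 CPM, median 1012, in control livers (log2 -2.63 ± 0.19, adjusted p = 6.12e-18). Fasn (ENSMUSG00000025153, chr11:120805846-120824547), fatty acid synthase, had 141 to 360.3 CPM, median 236, in leucine-free livers and 1082 to 4658 CPM, median 2699, in control livers (log2 -3.31 ± 0.24, adjusted p = 6.98e-18). For both, every leucine-free liver lay below every control liver. The same held for the regulator Srebf1, which had 58.8 to 262 CPM, median 162, in leucine-free livers and 284 to 727 CPM, median 565, in control livers (log2 -1.70 ± 0.19, adjusted p = 9.80e-11). Srebf2, its partner for cholesterol genes, had 41.7 to 101 CPM, median 63.0, in leucine-free livers and 52.6 to 91.9 CPM, median 76.8, in control livers and was not called (log2 -0.26 ± 0.13, adjusted p = 0.157), except by limma voom (adjusted p = 0.0306). In the cholesterol pathway Pmvk, Sc5d and Acat2 had the smallest p and fell by 2.34, 1.86 and 1.59.

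The Fasn promoter is shown with its CCAAT boxes, the site of NF-Y, a partner of SREBP, in capitals (CCAAT or its reverse complement ATTGG). The window is chr11:120824518-120824697, minus strand.
Fasn: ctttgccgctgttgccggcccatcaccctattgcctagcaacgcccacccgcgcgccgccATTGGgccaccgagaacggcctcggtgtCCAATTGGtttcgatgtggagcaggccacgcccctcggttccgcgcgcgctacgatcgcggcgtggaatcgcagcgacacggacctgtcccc
Within 300 bases, 15 of 26 promoters of the fatty acid list and 16 of 22 of the cholesterol list held CCAAT, against 37.4% of all promoters. The sterol response element TCACNCCAC was found in 1 promoter of each list and in 1.24% of all promoters, and the E-box CACGTG in 4 and 3, against 7.15%.

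Of 8 genes of the pentose phosphate pathway, which makes NADPH for fat synthesis, 6 fell and 1 rose (median -0.81). Taldo1 (ENSMUSG00000025503, chr7:141392199-141402968), transaldolase, had 74.5 to 97.2 CPM (median 86.9) in leucine-free livers, against 131 to 158 CPM (median 145) in control livers (log2 -0.75 ± 0.05, adjusted p = 2.10e-21), and Tkt, transketolase, had 69.4 to 116 CPM (median 88.9) in leucine-free livers, against 156 to 216 CPM (median 169) in control livers (log2 -0.95 ± 0.08, adjusted p = 6.02e-16). Neither group overlapped the other. Pgd fell by 1.69 and G6pdx by 1.40. H6pd, the enzyme of the endoplasmic reticulum, rose by 0.41.

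Genes of glycolysis and of glucose production moved in opposite directions. Of 20 genes of glycolysis and fructose use 11 fell and 1 rose (median -0.36). Pklr, liver pyruvate kinase, had 50.1 to 254 CPM, median 156, in leucine-free livers and 325 to 785 CPM, median 434, in control livers (log2 -1.73 ± 0.20, adjusted p = 3.66e-10), and Khk, which phosphorylates fructose, fell by 0.77. Ldha, lactate dehydrogenase, rose by 0.78. Of 17 genes of glucose production 8 rose and 1 fell (median 0.36). Pck1, which commits oxaloacetate to glucose, had 1825 to 6213 CPM, median 3434, in leucine-free livers and 879 to 2265 CPM, median 1501, in control livers (log2 1.32 ± 0.26, adjusted p = 7.74e-05), with only leucine-free replicate 13 inside the control range. Pcx, pyruvate carboxylase, rose by 0.37, and G6pc, the last step, was not called (log2 0.09).

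Of 30 genes of fat oxidation and ketone synthesis, 16 were higher and 1 lower (median 0.34). Acadm, a dehydrogenase of medium-chain fats, had 269 to 655 CPM, median 408, in leucine-free livers and 202 to 286 CPM, median 250.0, in control livers (log2 0.74 ± 0.09, adjusted p = 3.43e-09). Only leucine-free replicate 3 fell within the control range. Cpt1a, the gate for fat entry into mitochondria, rose by 0.58, and Angptl4, a lipase inhibitor, by 1.84. The 1 that fell was Fabp1, the fatty acid binding protein of liver (log2 -0.88). Acadl, Acadvl, Acot2 and Cyp4a14 lost their calls without leucine-free replicate 16, and 12 of 30 were then higher.

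Lipid storage genes and lipoprotein genes gave mixed pictures. Of 19 lipid droplet and fat uptake genes 6 rose, with Plin4 and Cidec, which encode droplet proteins, at log2 2.06 and 1.93, and G0s2, an inhibitor of the main lipase, at 1.64. Pnpla2, the lipase itself, rose by 0.64. Slc27a2, which activates fatty acids, had 1405 to 2591 CPM, median 1975, in leucine-free livers and 597 to 1324 CPM, median 936, in control livers (log2 1.09 ± 0.12, adjusted p = 6.41e-11), without overlap. Plin3 fell by 0.71 and Plin2 was not called (-0.04). Of 20 apolipoprotein and secretion genes 8 rose and 2 fell (1 without leucine-free replicate 1, 3 or 16). Scarb1, the receptor for high density lipoprotein, and Lcat, which esterifies its cholesterol, rose by 0.79 and 0.65, both without overlap. The nuclear genes of the respiratory chain tended lower, with 11 of 35 lower and none higher (median -0.12), led by Cycs, cytochrome c (log2 -0.56 ± 0.07, adjusted p = 1.15e-08). Scaled by total counts, 18 of the 35 were lower.

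Genes of leucine breakdown itself changed little. Of 23 branched-chain amino acid genes 3 rose and 4 fell, with a median of -0.02. Bcat2, the first transaminase, and Bckdha, of the dehydrogenase that follows, rose by 0.30 and 0.24. Mccc1 and Mccc2, the carboxylase specific to the leucine branch, fell by 0.32 and 0.30. The call of Bcat2 was lost without control replicate 5, at 0.23 (adjusted p = 0.131). Pcca, of propionyl-CoA carboxylase, had 58.7 to 113 CPM, median 90.9, in leucine-free livers and 116 to 153 CPM, median 126, in control livers (log2 -0.52 ± 0.10, adjusted p = 2.25e-05). Slc25a44, the mitochondrial branched-chain amino acid carrier, had 56.4 to 78.8 CPM, median 69.3, in leucine-free livers and 82.2 to 141 CPM, median 113, in control livers (log2 -0.68 ± 0.08, adjusted p = 1.56e-09), and the groups did not overlap. Of 27 amino acid transporters 4 rose and 2 fell. Slc3a2, the partner chain of the leucine carrier, rose by 0.38, and the carrier Slc7a5 was not called (0.39). In the methionine cycle, by contrast, Mat1a, which makes S-adenosylmethionine, had 4505 to 8828 CPM (median 6844) in leucine-free livers, against 2638 to 4231 CPM (median 3326) in control livers (log2 1.03 ± 0.12, adjusted p = 2.93e-10) with no overlap, and Ahcy rose by 0.78. Of the urea cycle, Ass1 and Otc fell by 0.43 and 0.26 and Asl rose by 0.42. Asl lost its call without control replicate 5, at 0.39 (adjusted p = 0.0577). Of the 36 genes on the urea cycle and amino acid breakdown list, 3 rose and 4 fell.

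Genes of the growth hormone axis moved in both directions. The receptor gene Ghr (ENSMUSG00000055737, chr15:3317760-3583492) had 201 to 427 CPM, median 304, in leucine-free livers and 389 to 518 CPM, median 431, in control livers (log2 -0.56 ± 0.10, adjusted p = 6.79e-06), and Igf1, the hormone that liver makes in answer, had 267 to 594 CPM, median 373, in leucine-free livers and 399 to 628 CPM, median 453, in control livers (log2 -0.44 ± 0.12, adjusted p = 0.00399). Binding proteins of IGF rose: Igfbp2 by 1.258, Igfbp4 by 0.43 and Igfbp1 by 1.49 (adjusted p = 0.0366). The call of Igfbp1 was lost without control replicate 5, at 1.35 (adjusted p = 0.0692), and with no expression filter (adjusted p = 0.0657). Insr and Igf1r, receptors for insulin and IGF, rose by 0.32 and 0.52. Over the list 5 of 18 rose and 2 fell, beside 10.5% higher and 13% lower over all genes tested. Of 21 clock genes 2 rose and 2 fell, near these shares. Per1 and Hlf were higher, and Dbp and Bhlhe40 lower (log2 -1.81 and -0.9995). The call of Dbp was lost with no expression filter (adjusted p = 0.0529). The hour of sampling is unknown here.

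Bile acid genes were mostly not called, with 3 of 26 higher and 2 lower (5 higher without leucine-free replicate 16, and 4 lower without replicate 3). Cyp7a1, the rate-limiting enzyme, had 2.82 to 180.1 CPM (median 71.7) in leucine-free livers, against 1.85 to 74.0 CPM (median 29.7) in control livers (log2 1.14 ± 0.54, adjusted p = 0.121), and 9 of 18 leucine-free livers lay within the control range. Slco1a1, an uptake carrier, fell by 2.07, and Abcb4, the phospholipid exporter of bile, rose by 0.50.

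Among detoxification genes, the lists of cytochrome P450 genes and of conjugating transferases leaned in opposite directions. Of 29 cytochrome P450 genes and regulators 11 rose and 3 fell (median 0.31). Cyp2e1, the alcohol-oxidising enzyme, had 5952 to 10356 CPM (median 7473) in leucine-free livers, against 2389.7 to 4726 CPM (median 3720.0) in control livers (log2 1.15 ± 0.14, adjusted p = 4.00e-10), and no control liver reached the lowest leucine-free one. Por, the reductase that feeds electrons to these enzymes, rose by 1.45, and Nr1i3, the receptor CAR, by 1.599. Cyp3a13 rose by 1.39 and Cyp2r1, a vitamin D hydroxylase, fell by 1.03. Of 29 conjugating transferases 15 fell and 4 rose (median -0.36), and 1 rose without control replicate 5. Gstm3 had 7.43 to 31.1 CPM (median 20.2) in leucine-free livers, against 43.5 to 107 CPM (median 65.8) in control livers (log2 -1.85 ± 0.24, adjusted p = 1.46e-08), Gstm2 fell by 1.34, and Ugt2b1, a glucuronosyltransferase, by 1.08, each without overlap. The antioxidant genes of NRF2 other than transferases were mostly not called: of the list of 19, 4 fell and 1 rose (6 fell without control replicate 5), and Nqo1, Gclc and Txnrd1 had log2 differences of -0.28, -0.38 and -0.02.

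Of all lists, G2 and mitosis had the largest share of members called. All 24 genes of G2 and mitosis were lower (median -3.89), as were 19 of 24 of S phase (median -0.69). Cdc20 (ENSMUSG00000006398, chr4:118432901-118437352), the activator of the complex that starts anaphase, had 0.0478 to 1.03 CPM (median 0.280) in leucine-free livers, against 2.51 to 36.7 CPM (median 13.4) in control livers (log2 -5.32 ± 0.29, adjusted p = 3.93e-24). Hmmr (ENSMUSG00000020330, chr11:40701395-40733422), a spindle protein, had 0 to 0.481 CPM (median 0.0979) in leucine-free livers, against 1.63 to 14.3 CPM (median 6.83) in control livers (log2 -5.66 ± 0.28, adjusted p = 2.26e-31). The groups did not overlap for either gene, and the control livers spread widely, with replicate 5 lowest for Cdc20 at 2.51 CPM. In S phase the helicase subunit Mcm6 had 3.71 to 6.64 CPM (median 4.41) in leucine-free livers, against 10.4 to 23.7 CPM (median 15.0) in control livers (log2 -1.73 ± 0.12, adjusted p = 1.43e-18) and Pcna, the sliding clamp, fell by 0.31. Among G1 genes and inhibitors, E2f1, E2f2 and Ccne1 fell by 1.13, 1.43 and 1.38, and Cdkn1a, the inhibitor p21, had 12.9 to 101 CPM (median 31.3) in leucine-free livers, against 6.39 to 13.8 CPM (median 9.77) in control livers (log2 1.98 ± 0.45, adjusted p = 0.000623). The stress genes Gadd45a and Gadd45b rose by 1.97 and 2.25. Ccnd1 was not called (log2 -0.69 ± 0.31, adjusted p = 0.096), except by limma voom (adjusted p = 0.00437).

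Promoters of 3 of the mitosis genes named for the size of their fall are shown because they share the same short elements. Capitals mark the CHR element TTTGAA, the site of the DREAM and MuvB complexes, and CCAAT or ATTGG.
Cdc20: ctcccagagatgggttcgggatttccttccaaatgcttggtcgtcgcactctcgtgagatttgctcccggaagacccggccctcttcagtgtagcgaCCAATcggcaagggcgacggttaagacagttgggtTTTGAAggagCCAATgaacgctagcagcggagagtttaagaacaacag
Hmmr: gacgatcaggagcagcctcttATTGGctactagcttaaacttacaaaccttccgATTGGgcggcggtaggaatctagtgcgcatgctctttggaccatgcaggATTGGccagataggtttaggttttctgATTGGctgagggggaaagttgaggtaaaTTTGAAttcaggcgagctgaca
Cenpf: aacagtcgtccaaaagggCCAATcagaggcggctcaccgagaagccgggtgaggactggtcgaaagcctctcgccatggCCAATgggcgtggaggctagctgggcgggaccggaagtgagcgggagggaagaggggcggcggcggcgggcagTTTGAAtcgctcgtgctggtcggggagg
The windows are chr4:118437314-118437493, minus strand for Cdc20, chr11:40733408-40733587, minus strand for Hmmr, and chr1:189688057-189688236, minus strand for Cenpf. Within 300 bases, TTTGAA was found in 16 of 21 promoters of the G2 and mitosis list, which covers 20 of its 24 genes, and in 17.9% of all promoters. CCAAT was found in 19 of the 21 and in 37.4% of all.

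**Figure D3:**
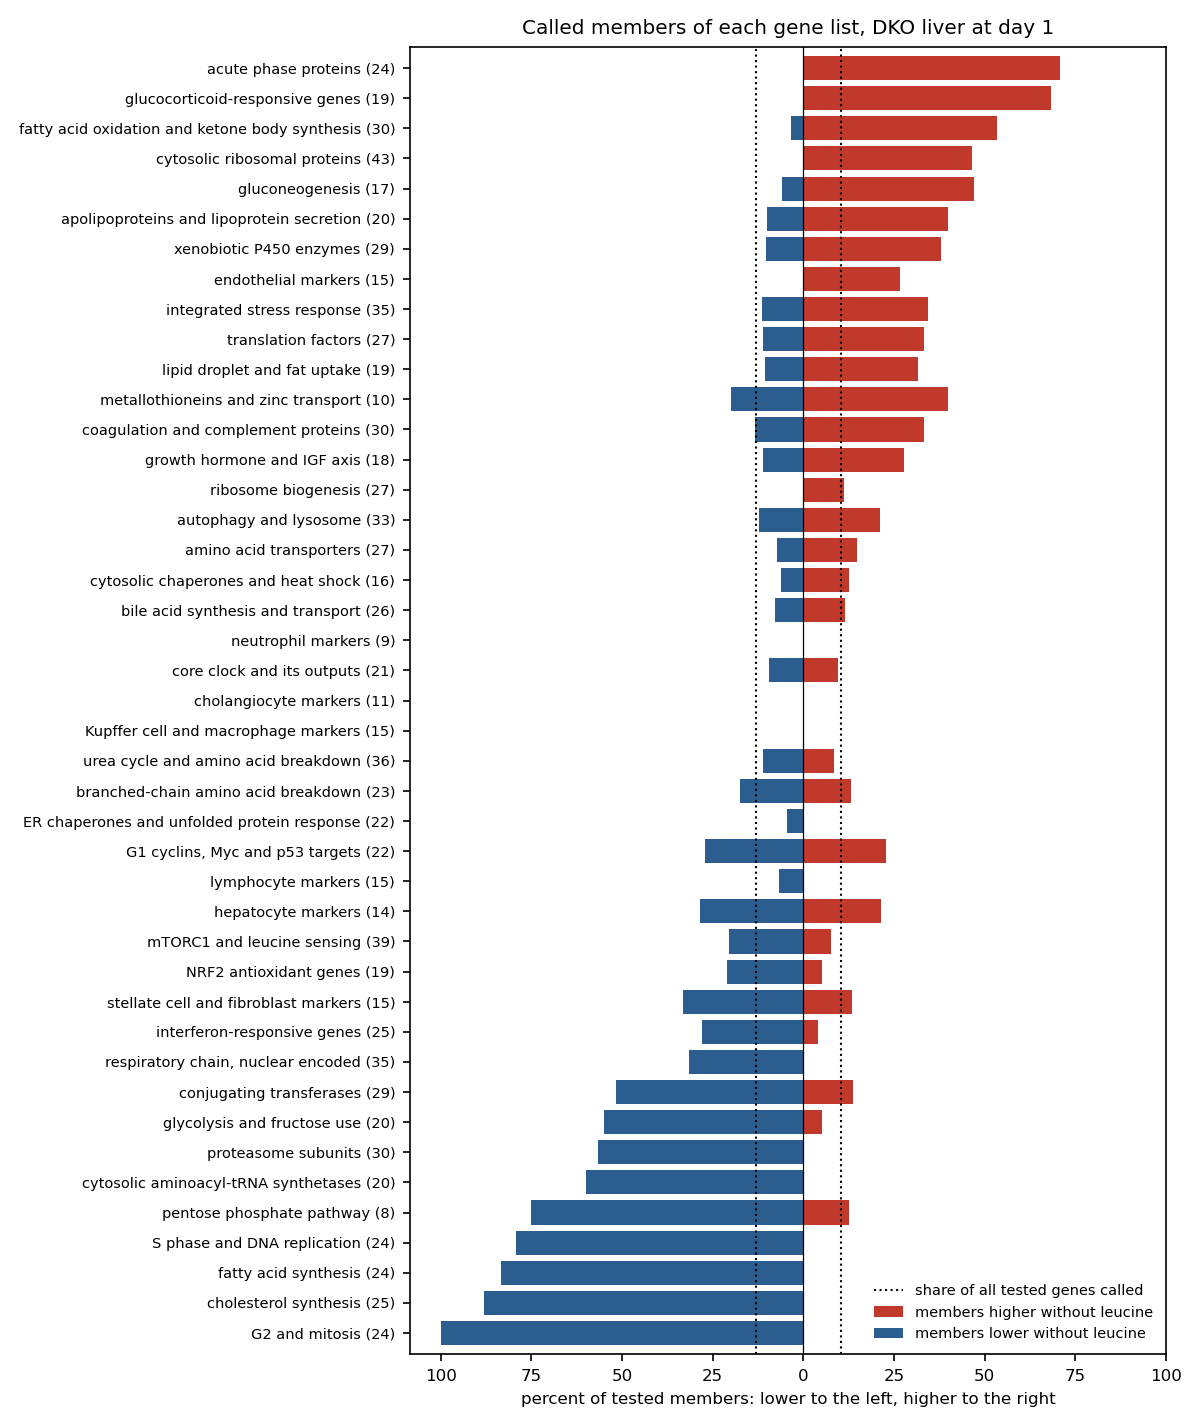
Percent of the tested members of 43 gene lists that were lower (bars to the left) or higher (bars to the right) in leucine-free DKO livers than in control DKO livers, with dotted lines at 13% lower and 10.5% higher, the shares over all genes tested. The bars of G2 and mitosis, cholesterol synthesis and fatty acid synthesis reach farthest left, and those of acute phase and glucocorticoid-responsive genes farthest right.

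Markers of liver cell types were set beside these results. The summed level of 14 hepatocyte markers was 61543 to 122330 CPM (median 100820) in leucine-free and 117310 to 135310 CPM (median 121410) in control livers, with 3 members higher and 4 lower (1 higher without leucine-free replicate 16). Ttr, the thyroxine carrier, fell by 0.58 and Alb by 0.49. None of 15 Kupffer cell, 11 cholangiocyte or 9 neutrophil markers was called, and their sums overlapped between the groups: for neutrophils 2.40 to 36.0 CPM (median 7.71) in leucine-free and 2.41 to 11.6 CPM (median 6.11) in control livers. Without control replicate 5, 2 Kupffer cell markers were higher. The sum of 15 Kupffer markers was 479.7 to 1376 CPM in leucine-free and 593 to 1153 CPM in control livers. Of 15 lymphocyte markers only Ighm fell (log2 -1.23). Of 15 endothelial markers 4 rose, Lyve1 most (log2 1.03 ± 0.33, adjusted p = 0.0146), and this count was 9 without control replicate 5 and 2 when scaled by total counts.

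Of 15 markers of stellate cells and fibroblasts 5 were lower and 2 higher. Their sum was 285 to 745 CPM (median 566) in leucine-free and 345 to 656 CPM (median 564) in control livers. Matrix and contractile genes were among those that fell. Tagln, an actin-binding protein of contractile cells, had 2.20 to 6.22 CPM (median 4.62) in leucine-free livers, against 8.62 to 21.7 CPM (median 14.3) in control livers (log2 -1.74 ± 0.16, adjusted p = 1.22e-14), without overlap. Acta2, smooth muscle actin, fell by 1.90, and the collagen genes Col3a1 and Col1a1 by 0.94 and 0.84. Lrat, Des and Pdgfrb were not called. Erythroid markers summed to 48.5 to 169 CPM (median 74.7) in leucine-free and 80.9 to 156 CPM (median 136) in control livers, with 3 of 7 lower (5 without leucine-free replicate 1). Of the acinar markers tested, Cela1 fell (log2 -1.09 ± 0.15, adjusted p = 7.16e-08) and Cela2a was not called. The part of these shifts in the other results was not tested.

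Of 30 coagulation and complement genes 10 rose and 4 fell (median 0.08), beside shares of 10.5% higher and 13% lower over all genes tested. F5, a cofactor of thrombin formation, had 809 to 1265 CPM, median 1062, in leucine-free livers and 589.5 to 853 CPM, median 737, in control livers (log2 0.50 ± 0.07, adjusted p = 3.97e-08), and F11, a protease of the intrinsic pathway, had 31.0 to 75.3 CPM, median 53.2, in leucine-free livers and 74.5 to 165 CPM, median 127, in control livers (log2 -1.19 ± 0.16, adjusted p = 3.44e-08). C9, of the membrane attack complex, fell by 0.63.

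Libraries within each group were not alike. The first principal component held 21.3% of the variance and separated all leucine-free livers (7.96 to 50.4) from all control livers (-56.2 to -14.2); the second held 9.62%. The mean squared deviation from the group mean of log2 CPM, scaled for group size, was highest in leucine-free replicate 16 (0.412) and control replicate 5 (0.395) of their groups. The inflammation genes singled out replicate 3, and Saa1 was also high in leucine-free replicates 14, 17, 12 and 2, at 745, 587, 565 and 299 CPM. The share of counts from mitochondrial genes was 3.02 to 4.14% (median 3.74) in leucine-free and 3.97 to 4.26% (median 4.07) in control livers, and its part in the results was not tested.

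**Figure D4:**
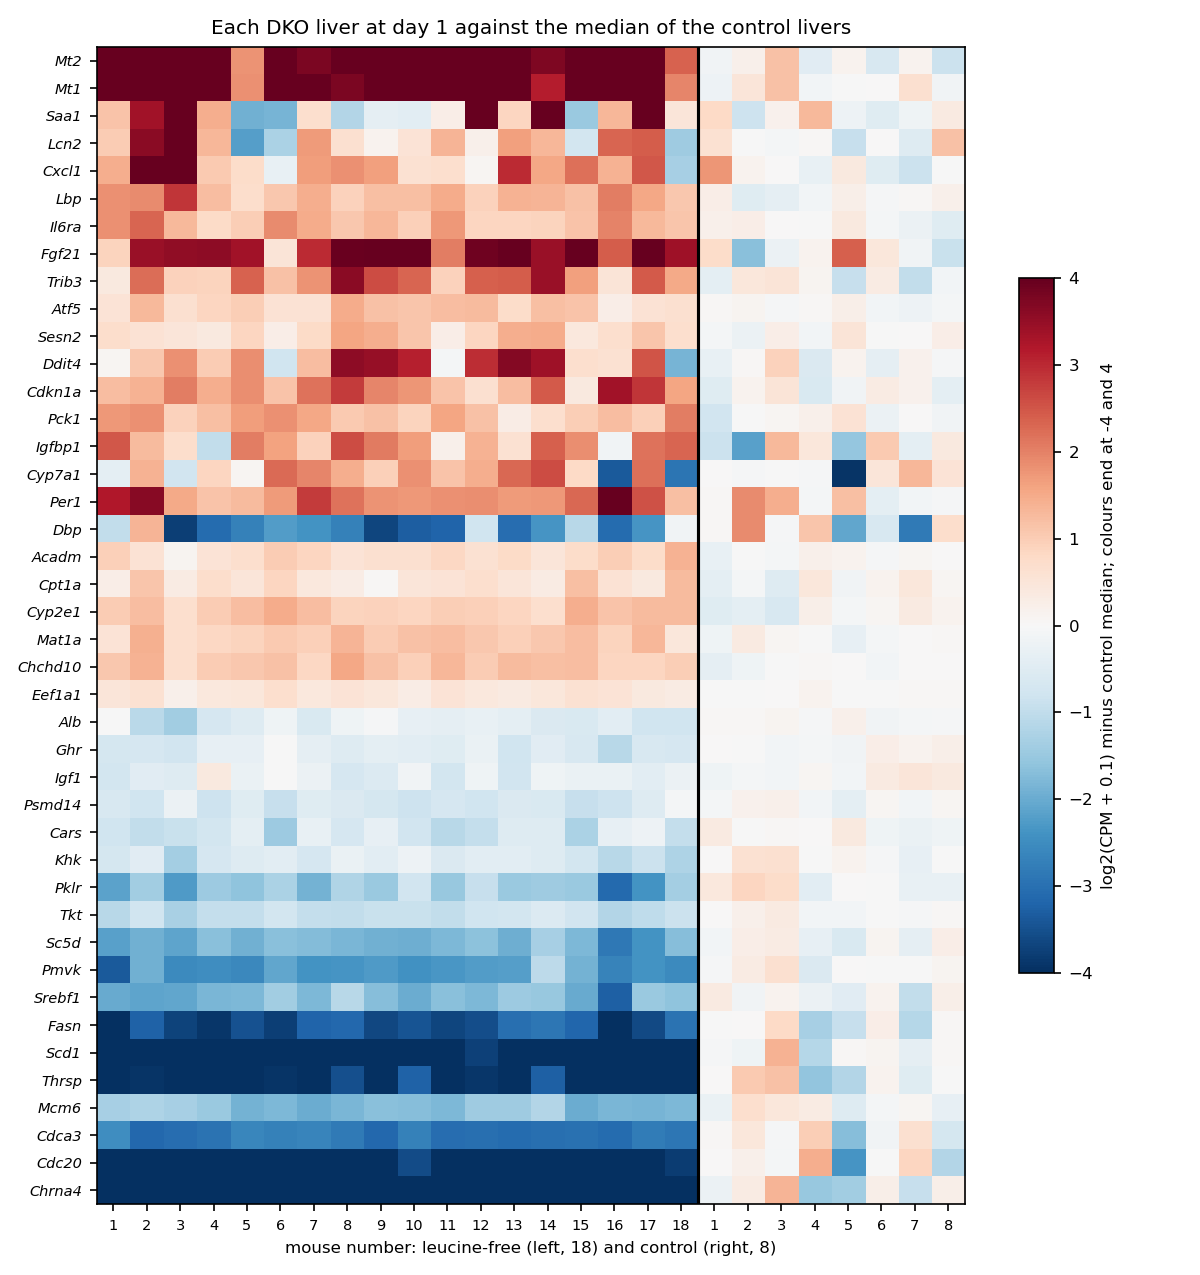
Log2 of CPM plus 0.1 minus the control median for 42 genes (rows) in 18 leucine-free DKO livers (left) and 8 control DKO livers (right), with colours ending at -4 and 4. The rows of Fasn, Scd1, Cdc20 and Chrna4 are below 0 in all leucine-free livers, whereas those of Saa1, Lcn2 and Ddit4 lie on both sides of 0.

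The same diet was given to WT mice, and 3291 genes (19.5%) were called there, 1400 higher (8.28%) and 1891 lower (11.2%). The comparisons use separate controls. The test of the difference between the DKO and the WT response called 63 of 16908 genes (0.373%), 62 (0.367%) with a lower DKO response and 1 (0.00591%), Ddit4, with a higher. That count fell to 29 with limma voom and to 40 with genes limited to a mean CPM of at least 1. Most lists gave no call: none of the fatty acid, cholesterol, fat oxidation, ribosomal protein, proteasome or tRNA synthetase genes was among the 63. In the integrated stress response list 1 of 35 was, again Ddit4, which had 4.49 to 23.2 CPM (median 7.75) in WT leucine-free livers, against 11.6 to 32.8 CPM (median 23.9) in WT control livers, and a difference of responses of 3.26 ± 0.75 (adjusted p = 0.0204).

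Of the 24 genes of G2 and mitosis 18 were among the 63, all with a lower DKO response, and in WT livers 20 of the 24 were lower (median -1.67). The control livers themselves stood at different levels. Cdca3, a mitotic entry factor, had 1.10 to 1.79 CPM (median 1.25) in leucine-free livers, against 3.17 to 20.6 CPM (median 10.5) in control livers, all of the DKO genotype. In WT it had 0.719 to 2.21 CPM (median 1.68) in WT leucine-free livers, against 1.38 to 4.69 CPM (median 2.59) in WT control livers, and the difference of responses was -2.46 ± 0.29 (adjusted p = 7.34e-08). The leucine-free livers of both genotypes overlapped, and the DKO control median was above each WT control liver. Stmn1, which binds tubulin, had 1.76 to 5.12 CPM (median 2.75) in leucine-free livers, against 5.20 to 20.6 CPM (median 10.3) in control livers in the DKO genotype. It had 2.14 to 5.90 CPM (median 3.55) in WT leucine-free livers, against 2.35 to 5.43 CPM (median 3.46) in WT control livers, and its DKO control median likewise lay above every WT control liver. Whether control livers of the genotypes differed was not tested here.

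**Figure D5:**
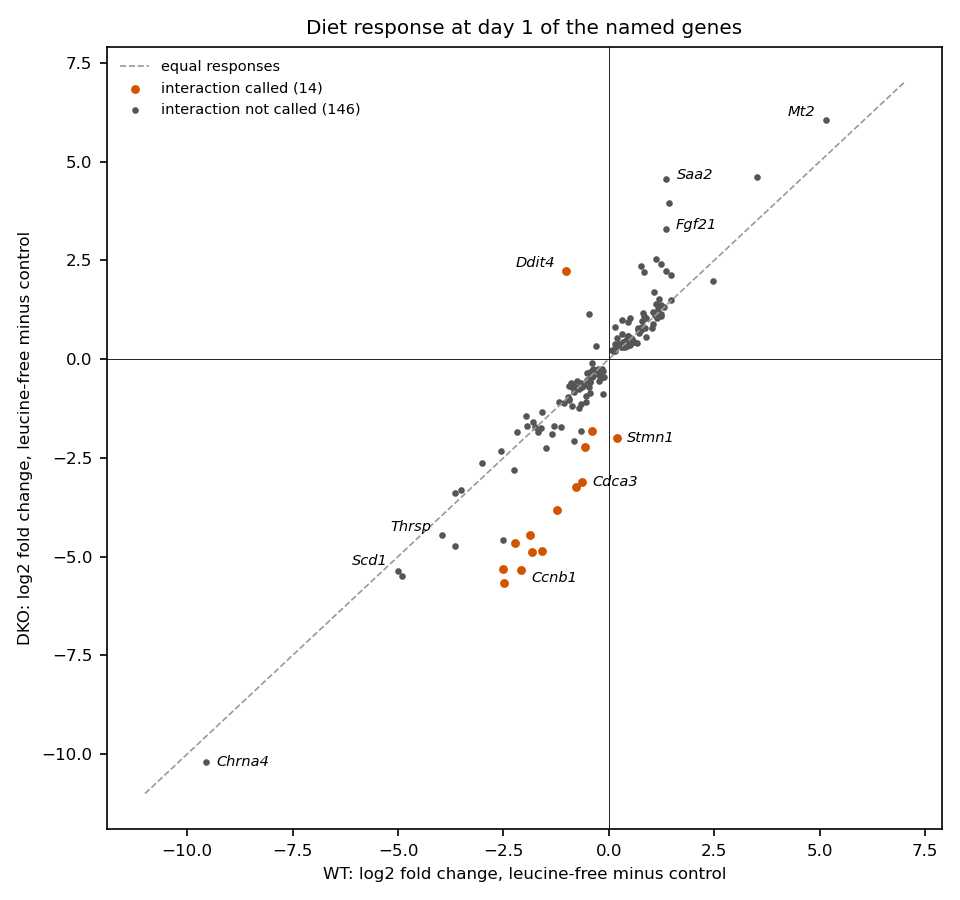
Log2 difference on leucine-free against control food in DKO livers (y axis) and WT livers (x axis) for the 160 genes of the naming rule, with 14 genes whose responses differed by the interaction test in orange and 146 in grey, and a dashed line of equal responses. Ddit4 is the orange point above the line and the other 13 lie below it.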

How the data were processed

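Liver RNA of 67 mice was sequenced; 26 libraries (18 DKO leucine-free and 8 DKO control, day 1) form the main comparison. Per the labels' protocols, frozen livers gave RNA by miRNeasy and directional libraries by NEBNext Ultra II. The authors deposited raw counts per Ensembl gene. Per the submitters' processing notes, featureCounts 2.0.1, STAR 2.7.1a and DESeq2 1.26.0 were used, with builds given as mm10 and GRCm38 and no role for any of them. Whether strand was used in counting is not stated there, so overlapping and antisense genes are uncertain. All 55450 identifiers matched GENCODE M21.

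Counts were scaled by TMM and fitted with edgeR 4.0.16 (R 4.3.3): 1 model of 8 groups over all 67 libraries, quasi-likelihood test, Benjamini-Hochberg adjustment over the 16908 genes that passed the expression filter (38542 left out), called at an adjusted p under 0.05. All adjusted p-values come from this test unless another tool is named. No pair of libraries agreed within sampling noise (lowest chi-square per degree of freedom 24.7 in leucine-free and 16.9 in control livers). P-values measure the spread between these mice, and the labels do not say whether mice shared a litter or cage. Alternatives were DESeq2 1.42.0, limma 3.58.1 with voom, other scalings and filters, a fit of the 26 libraries alone, a block for mouse number and, chosen after seeing the data, leaving out leucine-free replicates 1, 3 and 16 and control replicate 5.

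Members and gene lists were chosen with earlier results of these data known. Named genes are the 12 largest called changes in each direction averaging 5 CPM or more in either group, the 6 smallest p in each direction, up to 3 members per list by p, 29 genes fixed by name and 6 by the difference between genotypes. Other list members named in the text were chosen after their values were seen. Some genes that the rule names are left out of the text. Promoters come from RefSeq (GRCm38.p6), 250 bases before to 50 after the start, for 27025 symbols.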

Additional observations from a re-analysis of the deposited data

Results flagged for a closer look

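Of 160 genes examined in the 8 DKO control livers, 5 had a lowest or highest liver far from the others for the size of the group, where chance flags about 1 group in 20. These were Tars in replicate 4 (184 CPM, lowest), Nars in replicate 7 (132.1 CPM, lowest), Dhx58 in replicate 5 (9.87 CPM, lowest), Gdf15 in replicate 3 (18.3 CPM, highest) and Cyp7a1 in replicate 5 (1.85 CPM, lowest).

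For 14 of the named genes the response to leucine-free food differed between DKO and WT livers by edgeR's test of the difference (log2, DKO response minus WT response, Benjamini-Hochberg adjusted over all genes). Ddit4 had 3.26 (adjusted p = 0.0204), with 12 of 18 DKO leucine-free livers above the DKO control range. The other 13 had lower values, and for each, all 18 DKO leucine-free livers lay below all DKO control livers. Ckap2 had -3.29 (adjusted p = 0.00167), Ccnb1 -3.25 (0.00211), Hmmr -3.18 (0.00167) and Cenpf -3.07 (0.00906). Cdc20 had -2.82 (0.00355), Kif20a -2.59 (5.79e-05), Plk1 -2.57 (0.00833), Birc5 -2.47 (0.000211) and Cdca3 -2.46 (7.34e-08). Ckap2l had -2.42 (0.049998), Stmn1 -2.17 (8.19e-06), Arhgap11a -1.67 (0.000119) and Tacc3 -1.43 (8.47e-05).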

How the results depend on the processing

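The count of 3976 called genes in DKO livers ranged from 3019 to 4864 over the alternatives run with all libraries (1364 to 2106 higher, 1655 to 2758 lower), and each setting kept 70.35% to 98.49% of the genes called. Leaving out leucine-free replicate 1, 3 or 16 or control replicate 5 gave 3800 to 4315, and 62 to 84 for the difference between genotypes, which stood at 63. That count moved to 40 with a mean CPM of at least 1 and to 29 with limma voom; the cause was not tested. No named gene that was called in the main fit or in the alternative changed direction under any of these settings. DESeq2, its size factors and leaving out leucine-free replicate 1 or 16 changed no call among the 160 named genes; total counts ended 2, no filter 4, limma voom 3, the 26 libraries alone 1 (Lcn2), and leaving out control replicate 5 or leucine-free replicate 3 ended 2 each.

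Mouse numbers do not pair the groups: over 8 same-numbered pairs the correlation of deviations was -0.089 to 0.132 (median 0.027), and 0 controls correlated best with their own number. With the number as a replicate block, 3019 genes were called, 2797 of them shared, and 74 for the difference between genotypes. Mouse numbers 13 to 18 occur only among the DKO leucine-free livers of day 1. The block fits each of these livers by its own term, so they add nothing to the comparison. Numbers 9 to 12 are shared only with WT leucine-free livers of day 1. The part of this in the lost calls was not tested. The block ended 15 named calls, the most of any setting run: Ddit4 then stood at log2 1.29 (adjusted p = 0.0518), Lyve1 at 0.65 (0.203) and Lcn2 at 1.96 (0.0758), and Saa1, Saa2, Slco1a1, Ubtf, Polr1a, Hspa4l, Stab1, Eng, Hba-a2, Hbb-bt, Igfbp1 and Dbp also lost theirs. No endothelial marker was then called higher. At these depths counting error is small, and low genes such as Hmmr in leucine-free livers rest on few reads.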

Other observations

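The following gene families in DKO livers were chosen after their values were seen and are given as descriptions. Over all genes tested, 10.5% were higher and 13% lower. Tubulins, the subunits of microtubules, were lower in 4 of 5 alpha and 6 of 7 beta genes. Tuba1b averaged 12.3 ± 2.20 CPM in leucine-free and 26.4 ± 4.26 CPM in control livers (SD, n = 18 and 8; log2 -1.09). Tubb4b averaged 97.7 ± 28.8 CPM in leucine-free and 170.5 ± 31.3 CPM in control livers (log2 -0.80). Of 15 carboxylesterases, which split ester bonds of drugs and lipids, 5 were lower and none higher. Ces2e averaged 106 ± 24.2 CPM in leucine-free and 302.5 ± 36.9 CPM in control livers (log2 -1.51), and Ces2c had a log2 difference of -1.99.

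Of 16 host genes of small nucleolar RNAs, 5 were higher, 2 lower and 9 not called. Beside Gas5, Zfas1 averaged 10.2 ± 1.63 CPM in leucine-free and 5.77 ± 0.85 CPM in control livers (log2 0.82), and Snhg12 had a log2 difference of 0.75. Snhg11 averaged 3.04 ± 0.86 CPM in leucine-free and 7.48 ± 2.72 CPM in control livers (log2 -1.30). Other families were counted as well. Of 34 kinesins 13 were lower and 3 higher, and of 25 major urinary protein genes 4 were lower and 0 higher. Of 11 acyl-CoA thioesterases 3 were higher and 3 lower, and of 20 Serpina genes 5 were higher and 4 lower. Among 16 cytochrome P450 family 4 genes 6 were higher and 1 lower, and among 14 Kruppel-like factors 3 were higher and 0 lower.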
